A study of Mus musculus with 26 samples.

Results

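Mammary tumor organoids kept in culture were set against whole mammary tumors, both under the control oligonucleotide scASO, to show which transcripts differ between cultured tumor tissue and tumors in the mouse. The libraries were chosen by their titles, organoid scASO 1 to 4 and tumor scASO 1 to 3, which makes 7 of the 26 RNA sequencing libraries of the study. Both sides came from C57BL/6 mice with the MMTV-PyMT transgene, in which a viral promoter that is active mainly in mammary epithelium drives the polyoma middle T antigen. Organoids from such tumors were grown in Matrigel with FGF2, and 500 nM of scASO was in the medium for 6 days and renewed after 3 days. The tumor-bearing mice had 125 mg/kg of scASO per week under the skin for several weeks. As a check of direction, 4 organoid libraries titled Mock were set against the same 3 tumors. A further 4 organoid and 3 tumor libraries carried ASO1, and 4 organoid and 4 tumor libraries carried ASO2, both directed against the long noncoding RNA Malat1. The labels state neither the age of the mice nor how many mice stand behind a library, nor any pooling.

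Matrigel is a gel of basement membrane proteins, rich in laminin and type IV collagen, in which mammary epithelial fragments form hollow or branching bodies. FGF2 binds FGF receptors and activates RAS and the kinase ERK. ERK in turn induces its own brakes, the Sprouty and Spred proteins and the phosphatase Dusp6, together with the ETS factors Etv4 and Etv5. A whole tumor also holds vessels, leukocytes, fibroblasts and blood. Cholesterol genes are driven by the SREBP factors, which a cell activates when sterol in its membranes is low.

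The 4 organoid libraries held 38.4, 39, 24 and 25.7 M reads assigned to genes, and the 3 tumor libraries 35.8, 33.8 and 22.4 M. Reads outside any annotated gene came to 10.2 to 12.8% of the assigned reads in organoids and to 17.0 to 19.0% in tumors. Malat1, which scASO should leave alone, stood at 836, 118.7, 781 and 1191 CPM (read counts scaled to a common library size) in the organoids, against 1569, 1914 and 847 CPM in the tumors. The library labelled scASO organoid 2 was thus far below the other organoids, while the Mock organoids had 713 to 1578 CPM. Malat1 averaged 40.6% of the tumor level in organoids on the log scale, which did not pass an exact two-sided permutation test (p = 0.114, smallest possible 0.0571), and 68.3% without the library labelled organoid 2 (p = 0.2). Read counts of organoids 1 and 2 lay closer together than those of any other pair of scASO organoids, at a chi-square of 15.03 per degree of freedom against 130 to 285.3. Organoid 4 stood apart on the first principal component, at 77.4 against 20.7 to 21.7 in the other organoids and -58.7 to -30.4 in the tumors. In all 26 libraries, the 4 organoid libraries numbered 4 lay at 70.7 to 81.5 on the first component and the other organoids at 11.4 to 28.9. Results are therefore given also without organoid 2 and without organoid 4 where either matters. Whether libraries of a group stem from separate mice or cultures is not labelled, and a p-value here covers the spread among the libraries alone. Any difference in how the 2 kinds of sample were prepared cannot be told apart from culture.

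Of 16836 genes tested with edgeR's quasi-likelihood test, 4993 (29.7%) differed between organoids and tumors at an adjusted p under 0.05, which is what "called" means below. Higher levels in organoids were called for 2644 genes (15.7%) and lower levels for 2349 (14%). A change of more than 2-fold was called for 1071 genes (6.36%), 480 (2.85%) upward and 591 (3.51%) downward. The median log2 fold change of all genes tested, organoid over tumor throughout, was 0.018. The number called was 3325 (20.2%) without organoid 2 and 5971 (35.8%) without organoid 4. By direction, 10.5% of genes were called higher and 9.73% lower without organoid 2, and 18.1% and 17.6% without organoid 4. The number was 3117 without tumor 1, 2667 without tumor 2 and 2813 without tumor 3. In 42.5% of the genes tested no organoid overlapped a tumor. Mock organoids gave 2849 called genes (16.9%) against the same tumors, 8.72% higher and 8.18% lower. ASO1 organoids against ASO1 tumors, which share no library with the scASO comparison, gave 2198 called genes (12.8%), 6.82% higher and 6.03% lower. The ASO2 pair gave 5779 (34.7%), 17.2% higher and 17.5% lower. Of the genes called higher with scASO, 36.3% were also called higher in the ASO1 pair, where they made up 82.3% of its calls. In the ASO2 pair they were 72% of the scASO calls and 66.6% of the pair's own. Of the genes called lower, 34.2% and 73.4% were also called lower in the ASO1 and the ASO2 pair, 77.9% and 59.1% of the calls of those pairs, and no gene was called in opposite directions. These pairs may not be independent of the scASO comparison. Same-numbered organoids of different treatments deviated together from their group means (median r 0.78), and whether they share a source is not labelled.

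Markers of blood vessels, macrophages, lymphocytes and red blood cells were lower in organoids, and epithelial markers stood near their level in tumors. In bulk RNA, fewer cells of a type and less RNA per cell cannot be told apart. The summed level of 22 pan-epithelial genes was 8255 to 9171 CPM in organoids and 7059 to 8205 CPM in tumors. Among 20 endothelial genes 16 fell, with a list median of -2.55 on the log2 scale. Egfl7, a protein secreted by endothelial cells, had 1.49, 1.80, 1.09 and 1.33 CPM in organoids, against 9.88, 11.2 and 10.2 CPM in tumors. Every organoid was below every tumor, a log2 fold change of -2.86 ± 0.24 (SE, adjusted p = 0.00079). Aplnr, the apelin receptor of growing vessels, had 0.087 to 0.442 CPM in organoids and 4.73 to 6.40 CPM in tumors. The list's sum was 134, 140.1, 53.65 and 123.8 CPM in organoids, against 144.3 to 149.7 CPM in tumors, but most of it in every organoid was Flt1 alone. Flt1, a VEGF receptor, went the other way and had 84.2, 97.9, 37.3 and 108 CPM in organoids, against 13.1, 11.2 and 13.3 CPM in tumors (log2 2.72 ± 0.36, adjusted p = 0.0024). It was the 1 member of the 20 that rose. Pecam1, the endothelial adhesion molecule CD31, had 2.96 to 10.6 CPM in organoids and 13.9 to 16.1 CPM in tumors and did not pass the test (adjusted p = 0.098).

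**Figure D1:**
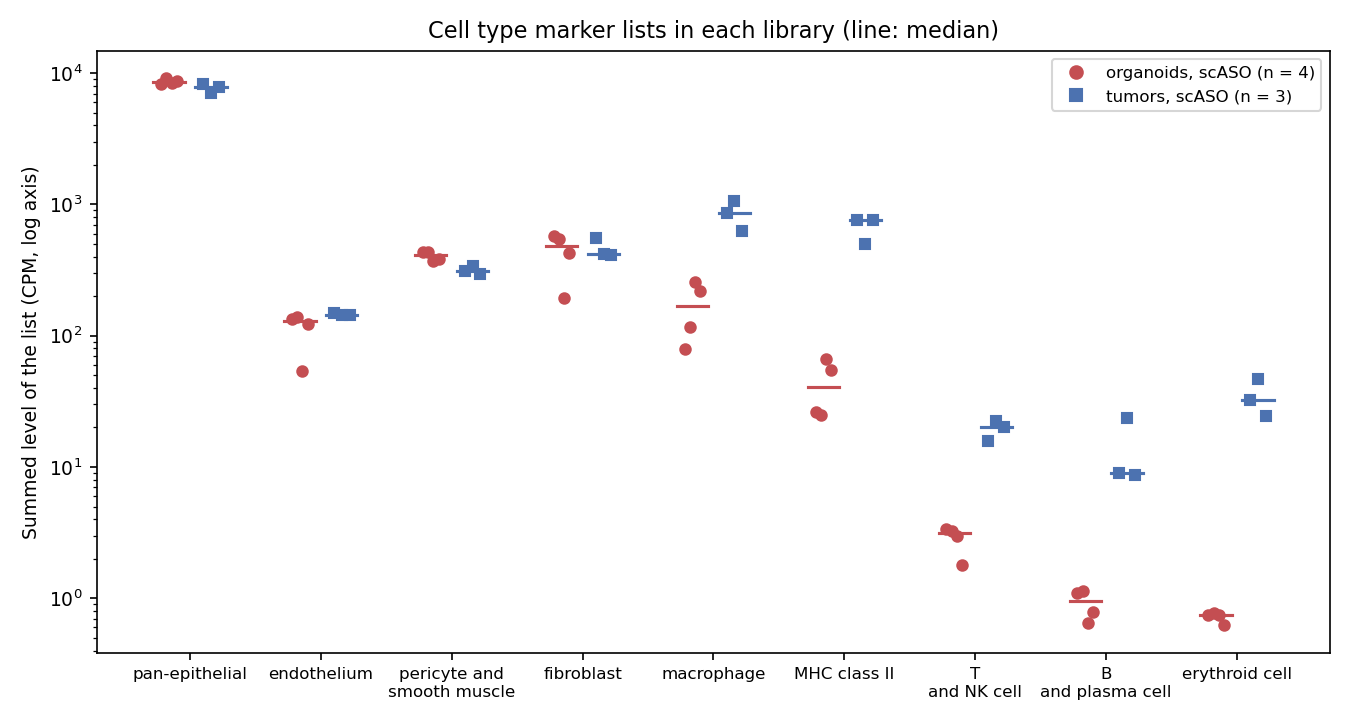
Summed level (CPM, log axis) of chosen marker lists in every scASO library, organoids as red circles (n = 4) left of tumors as blue squares (n = 3), with a line at the median. The lists are pan-epithelial, endothelium, pericyte and smooth muscle, fibroblast, macrophage, MHC class II, T and NK cell, B and plasma cell, and erythroid cell. Granulocyte, adipocyte, skeletal muscle and Schwann cell lists are not drawn, and their sums overlap between organoids and tumors. Pan-epithelial sums lie at 8255 to 9171 CPM in organoids and 7059 to 8205 CPM in tumors, while macrophage, class II, T and NK cell, B cell and erythroid sums in organoids all lie below those in tumors. The endothelial sum in organoids is mostly Flt1.

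Of 20 macrophage genes 15 fell and none rose (list median -3.11). C1qa, a complement subunit made by tissue macrophages, had 5.08, 6.72, 13.2 and 7.75 CPM in organoids, against 76.1, 104 and 67.0 CPM in tumors. The groups were far apart, at a log2 fold change of -3.32 ± 0.34 (adjusted p = 0.0013). Csf1r, the receptor for the macrophage growth factor CSF1, was likewise lower, at 2.43 to 10.4 CPM in organoids and 38.3 to 70.3 CPM in tumors (log2 -3.15 ± 0.50). Macrophage genes were still counted in every culture: the list summed to 78.57 to 255.7 CPM in organoids, against 628.9 to 1064 CPM in tumors. Cd68, a lysosomal protein, overlapped between the groups and was not called (log2 -0.28, adjusted p = 0.65). Organoid 4 held 32.2 CPM of it, against 8.79 to 14.4 CPM in the other organoids and 18.6 to 24 CPM in tumors. Without organoid 4 it was called lower (log2 -0.83, adjusted p = 0.0269).

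Lymphocyte and red cell transcripts were low in the organoids, and several had no read there. The T and NK cell genes summed to 1.78 to 3.40 CPM in organoids and to 15.7 to 22.5 CPM in tumors, and the erythroid genes to 0.622 to 0.778 CPM in organoids and to 24.6 to 46.5 CPM in tumors. No read of Gzmb, the granzyme of killer cells, of the T cell antigens Cd8a and Cd3g, or of the globins Hbb-bs and Hba-a1 was counted in any of the 4 organoid libraries. Gzmb had 4.01, 6.08 and 3.09 CPM in tumors, so that it was at least 175-fold lower in organoids, taking 3 reads over the 4 libraries as the limit. By the same limit Cd8a was at least 68.9-fold, Cd3g at least 52.9-fold, Hba-a1 at least 310-fold and Hbb-bs at least 639-fold lower. These limits cover counting error only. Of 16 T and NK cell genes 12 were tested and 10 fell, and of 7 erythroid genes 5 were tested and 5 fell. Among those tested, 8 T and NK cell genes and 4 erythroid genes had no read in organoids. They passed the read filter through the tumors alone and could only be called lower, so these counts and the medians are descriptions and no test of a fall. With genes at 0 set to their limit, the list medians were -5.14 and -6.81. B and plasma cell transcripts were also low, with 3 of 4 tested genes lower, out of 12 in the list. Ighm, the heavy chain of IgM, was at 0 in 3 organoids and at 0.139 CPM in organoid 2, against 6.23, 17.2 and 5.18 CPM in tumors (log2 -7.76 ± 1.00, adjusted p = 0.0023). The other 2 lower members were Igkc, an antibody light chain with 1 read in all organoids against 0.32, 1.64 and 1.04 CPM in tumors (adjusted p = 0.00318), and Jchain. Jchain was called only with all libraries or without organoid 4, at an adjusted p of 0.0575 to 0.181 without any other.

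Stromal cells did not move as a block. Among 14 fibroblast genes tested 7 fell and 2 rose. Sfrp2, a Wnt-binding protein of fibroblasts, had 0.525, 0.5, 0.261 and 0.497 CPM in organoids, against 6.26, 8.62 and 5.80 CPM in tumors (log2 -3.92 ± 0.34, adjusted p = 0.00079). Lum, a collagen-binding proteoglycan, was also lower, at 0.166 to 1.42 CPM in organoids and 5.62 to 12.2 CPM in tumors (log2 -3.41 ± 0.62). With Mock organoids Lum missed the threshold (adjusted p = 0.0502). Dcn, decorin, separated the cultures from each other: organoids 1 to 3 held 3.87, 6.33 and 2.26 CPM and organoid 4 held 156 CPM, against 147, 50.2 and 61.6 CPM in tumors. Its log2 fold change was -0.99 (adjusted p = 0.62), and -4.39 without organoid 4 (adjusted p = 0.00243). Postn, periostin, overlapped between the groups, at 106 to 446 CPM in organoids and 266 to 339 CPM in tumors. The 2 members that rose were Prrx1, a mesenchymal transcription factor, at 19.1 to 38.7 CPM in organoids against 5.41 to 8.79 CPM in tumors, and Fbln1, whose call was lost without any 1 tumor. The list sum overlapped, at 192.4 to 577.5 CPM in organoids and 409.9 to 554.2 CPM in tumors. Of 11 pericyte genes 2 fell and 1 rose, against 14% lower and 15.7% higher among all genes tested. These counts became 5 and 2 without organoid 3, and 4 and 1 without organoid 4. Rgs5, a G-protein regulator of pericytes, had 0.705 to 3.26 CPM in organoids and 21.2 to 31.3 CPM in tumors (log2 -3.60 ± 0.45). Higd1b was the other that fell, with 3 reads in the 4 organoid libraries against 1.18, 1.18 and 1.2 CPM in tumors (adjusted p = 0.0013). Notch3, a Notch receptor of pericytes that mammary epithelium also uses, rose, at 261 to 339 CPM in organoids and 146 to 178 CPM in tumors. Of 8 adipocyte genes tested 3 fell, Cfd, Plin4 and Car3, but the other 5 had a positive fold change. The list median was 0.639, and -0.61 without organoid 4. Adipocyte genes summed to 19.06 to 144.6 CPM in organoids, highest in organoid 4, against 30.08 to 32.36 CPM in tumors. Of 8 Schwann cell genes 3 fell, among them Ncmap and Cdh19, against 14% lower among all genes tested. The call of Ncmap was lost without organoid 1, organoid 2, organoid 4, tumor 2 or tumor 3. Granulocyte genes summed to 6.796, 7.22, 10.79 and 226.9 CPM in organoids 1 to 4, against 9.998 to 60.32 CPM in tumors.

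Antigen presentation by MHC class II, found mainly on dendritic cells, macrophages and B cells, was lower in organoids: 8 of 8 genes fell, with a list median of -3.74. H2-Aa, a class II chain, had 0.552, 0.472, 6.61 and 2.94 CPM in organoids, against 168, 98.3 and 162 CPM in tumors. The groups were separated by more than the spread within either (log2 -5.78 ± 0.91, adjusted p = 0.004), and organoid 3 was the highest organoid. H2-Eb1, the partner chain of another class II dimer, differed by log2 -5.64 ± 0.61 and Cd74, the invariant chain, by -4.94 ± 0.55. Without organoid 3 these 3 log2 fold changes were -6.83, -6.40 and -5.55. The summed class II level was 24.8 to 66.09 CPM in organoids and 501.2 to 760.4 CPM in tumors. Macrophage and B cell markers were lower in the same libraries, with the macrophage sums given above and B and plasma cell sums of 0.653 to 1.14 CPM in organoids and 8.74 to 23.8 CPM in tumors, and their part in the class II result was not tested.

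MHC class I moved less. Of 9 class I genes 5 fell, with a list median of -0.76. H2-K1 had 710, 846, 793 and 889 CPM in organoids, against 1958, 1396 and 1299 CPM in tumors (log2 -0.93 ± 0.20, adjusted p = 0.012), and H2-D1 differed by -0.76 ± 0.16. The other 3 were the transactivator Nlrc5 and the immunoproteasome subunits Psmb8 and Psmb10. The count was 2 without organoid 2, 3 without tumor 1 and 2 without tumor 2, and with Mock organoids it was 0 (H2-K1 adjusted p = 0.142, H2-D1 0.176).

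Interferon-stimulated genes, which interferon turns on through STAT and IRF factors, were lower in direction for 23 of 23 members, and 11 passed the test (list median -1.60). The promoters of the 2 members with the smallest p in the sequence table are shown for the interferon response element core, GAAA, any 2 bases and GAAA, on either strand. They are 300 bases from RefSeq on GRCm38.p6, 250 before and 50 after the gene's start, 5′ to 3′ on the gene's strand, with the match in capitals. The Stat2 promoter (chr10:128270248-128270547, + strand) holds 1 match, on the reverse strand, and the Oasl1 promoter (chr5:114922990-114923289, + strand) holds none.
Stat2: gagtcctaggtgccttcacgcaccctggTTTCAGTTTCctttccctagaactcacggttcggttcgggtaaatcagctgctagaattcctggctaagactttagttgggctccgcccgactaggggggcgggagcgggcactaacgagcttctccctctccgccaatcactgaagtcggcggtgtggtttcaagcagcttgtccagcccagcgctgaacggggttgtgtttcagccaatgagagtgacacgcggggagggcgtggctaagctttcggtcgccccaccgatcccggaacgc
Oasl1: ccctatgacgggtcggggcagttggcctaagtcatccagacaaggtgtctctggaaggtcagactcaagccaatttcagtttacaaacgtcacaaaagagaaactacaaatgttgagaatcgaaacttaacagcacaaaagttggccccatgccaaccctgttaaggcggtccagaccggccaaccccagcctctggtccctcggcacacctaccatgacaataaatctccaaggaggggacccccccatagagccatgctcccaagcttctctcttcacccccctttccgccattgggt
Among 23 members the sequence table had 15, and 9 of them held the core, against 3.44% of all 32851 promoters. A member counted if any of its promoters matched, while the share is per promoter, over 27025 genes, so the 2 are not counted alike. Stat2, itself a part of the interferon-activated factor, had 41.3, 48.7, 67.4 and 43.3 CPM in organoids, against 133, 103 and 157 CPM in tumors (log2 -1.38 ± 0.22, adjusted p = 0.0039). Oas2, an RNA sensor that activates RNase L, had 5.50, 6.86, 29.2 and 7.58 CPM in organoids, against 125, 44.0 and 151 CPM in tumors (log2 -3.11 ± 0.68, adjusted p = 0.013). Organoid 3 was the highest organoid for both, and tumor 2 the lowest tumor. Ifi27l2a, an interferon-induced protein, had 0.166 to 1.09 CPM in organoids and 5.35 to 8.55 CPM in tumors. Oasl1, a relative of the OAS enzymes, had 5.64 to 14.1 CPM in organoids and 18.1 to 26.7 CPM in tumors, and its call (log2 -1.39, adjusted p = 0.017) was lost without tumor 1 or tumor 3 (0.058 and 0.0659). The count of called members depended on single libraries: it was 22 without organoid 3, 5 without organoid 2, and 3 without tumor 1 or without tumor 3. With Mock organoids 1 member was called, where Stat2 had an adjusted p of 0.0654 and Oas2 of 0.0948. In the ASO1 and ASO2 pairs, 5 and 18 members were called lower.

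Some secreted defense proteins fell. Among 14 acute-phase and mucosal defense genes 4 fell, Ltf, C4b, Saa1 and Pigr, against 14% lower among all genes tested. The list as a whole did not keep its direction. Its median was -0.175, against 0.057 with Mock organoids, 0.893 in the ASO1 pair and 0.149 in the ASO2 pair. Mock organoids gave 2 lower calls, and each ASO pair 2 higher and 2 lower. Ltf, the iron-binding lactoferrin of milk, had 126, 137, 34.3 and 31.5 CPM in organoids, against 956, 469 and 726 CPM in tumors (log2 -3.13 ± 0.58). C4b, complement component 4, had 5.78 to 30.4 CPM in organoids and 142 to 179.9 CPM in tumors (log2 -3.60 ± 0.59, and -4.46 without organoid 3). The calls of Saa1 and Pigr were lost without organoid 1 or any 1 tumor, which left 2. Lcn2, the siderophore-binding lipocalin, was high on both sides, at 3778 to 4298 CPM in organoids and 3490 to 6005 CPM in tumors (log2 -0.09, adjusted p = 0.81).

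About as many basal and myoepithelial genes rose as were not called, and most milk genes fell. Of 17 basal and myoepithelial genes 9 rose and none fell, with a list median of 1.69, and 8 or 9 rose when any 1 library was left out, with 1 lower without tumor 3. The list was split in direction, with 10 members positive and 7 negative. These numbers were 9 and 8 with Mock organoids and in each of the ASO1 and ASO2 pairs. With Mock organoids 8 rose and none fell. The ASO1 pair had 5 higher and 2 lower (median 0.63) and the ASO2 pair 9 higher and 2 lower (median 1.94). Krt14, the keratin of basal mammary cells, had 1167, 1402, 1146 and 2698 CPM in organoids, against 109.8, 76.9 and 77.6 CPM in tumors. Every organoid exceeded every tumor by about an order of magnitude (log2 4.20 ± 0.42, adjusted p = 0.0013). Krt17, a keratin of basal and injured epithelium, had 344, 372, 173 and 1038 CPM in organoids, against 33.9, 43.6 and 11.5 CPM in tumors (log2 4.04 ± 0.76, and 3.29 without organoid 4). Nrg1, a ligand of ErbB3 and ErbB4 made by basal cells, and Jag2, a Notch ligand, rose by log2 2.4 ± 0.33 and 2.32 ± 0.41. A pair of contractile genes of the same list, chosen after their values were seen, was not called. Acta2, smooth muscle actin, had 488, 332, 221 and 149.7 CPM in organoids, against 216, 612 and 110.2 CPM in tumors (log2 -0.08, adjusted p = 0.93). Myh11, smooth muscle myosin, had 7.53 to 77.7 CPM in organoids and 36.5 to 219.5 CPM in tumors (log2 -1.53, adjusted p = 0.16).

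**Figure D2:**
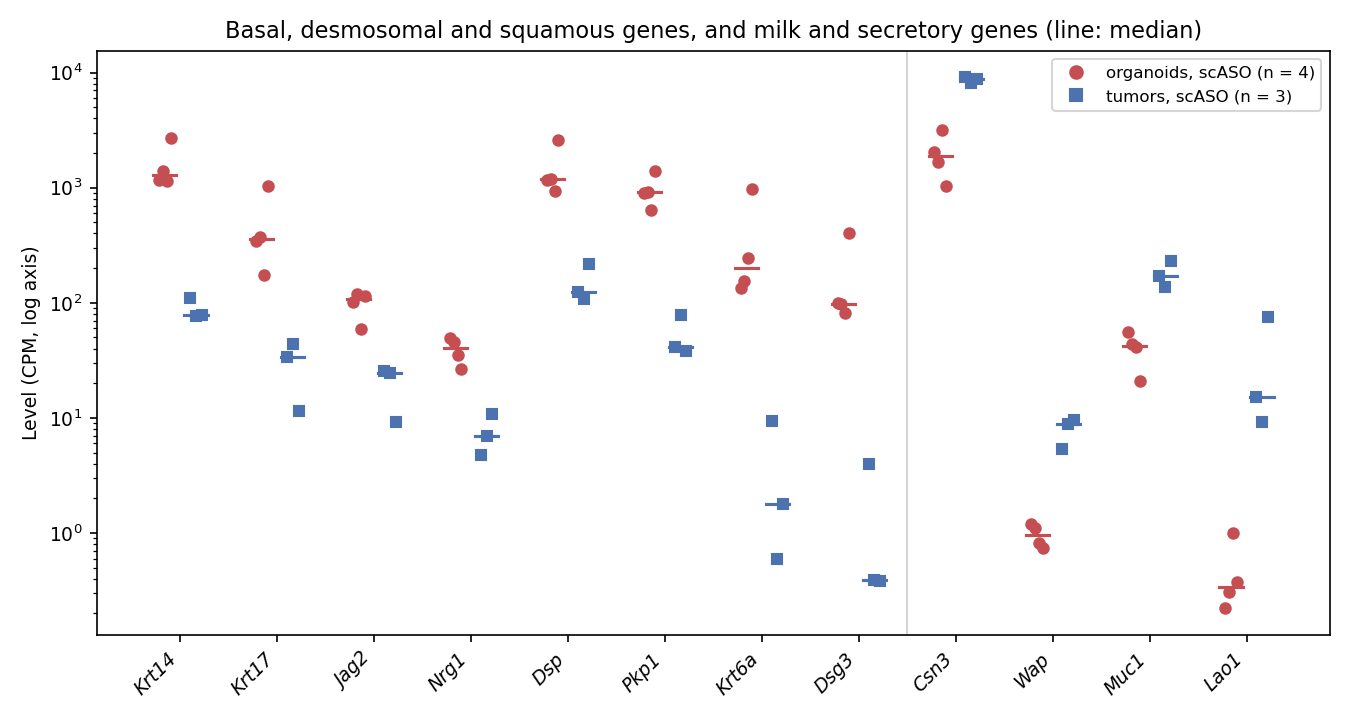
Level (CPM, log axis) of basal, desmosomal and squamous genes and of milk and secretory genes in every scASO library, organoids as red circles (n = 4) left of tumors as blue squares (n = 3), with a line at the median. For every gene drawn from Krt14 to Dsg3 the lowest organoid is above the highest tumor, and for Csn3, Wap, Muc1 and Lao1 the highest organoid is below the lowest tumor.

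Desmosomes, the junctions that anchor keratin filaments between cells, gained transcripts: 8 of 18 desmosome and tight junction genes rose and 1, the claudin Cldn8, fell. The rise was called for 4 of them without tumor 2 and 4 without tumor 3. Pkp1, a desmosomal plaque protein, had 898, 923, 642 and 1404 CPM in organoids, against 41.5, 78.0 and 38.1 CPM in tumors (log2 4.21 ± 0.41, adjusted p = 0.0012). Dsp, desmoplakin, had 1177, 1190, 943 and 2596 CPM in organoids, against 124, 108 and 218 CPM in tumors (log2 3.32 ± 0.47). Organoid 4 was the highest for both. Jup and Dsg2, plakoglobin and a desmoglein of simple epithelia, rose by log2 1.04 ± 0.16 and 0.97 ± 0.16.

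Of 17 tested squamous and cornified envelope genes 3 rose, a share near the 15.7% of all genes tested. All 17 had a positive fold change, with a list median of 5.05 that was 1.2 without organoid 4 and 8.33 without tumor 1. Without organoid 4, 2 were called lower. In the ASO1 pair 7 of 16 tested rose (median 7.28) and in the ASO2 pair 11 of 16 (median 6.86). Krt6a, a keratin of stressed and squamous epithelium, had 135, 156, 247 and 966 CPM in organoids, against 9.38, 0.6 and 1.78 CPM in tumors (log2 6.6 ± 1.31, adjusted p = 0.009). Its fold change was 5.46 without organoid 4 and 8.37 without tumor 1. Dsg3, the desmoglein of stratified epithelium, had 99.4, 97.5, 82.3 and 407 CPM in organoids, against 4.01, 0.392 and 0.387 CPM in tumors (log2 6.72 ± 1.19, 5.78 without organoid 4 and 8.80 without tumor 1). Organoid 4 was highest and tumor 1 the highest tumor for both. Krt16 was at 37.5, 40.7, 159 and 1920 CPM in organoids, against 12.6, 0.0783 and 0.464 CPM in tumors, and did not pass the test (adjusted p = 0.054). Krt6b passed it (adjusted p = 0.03) but not without tumor 1, tumor 2 or tumor 3 (0.0615, 0.0995 and 0.108).

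Milk and secretory genes fell for 12 of 19 members (list median -1.83), and 2 rose. Csn3, κ-casein, had 2061, 1675, 3178 and 1034 CPM in organoids, against 9093, 8171 and 8822 CPM in tumors (log2 -2.13 ± 0.35, adjusted p = 0.0049). Wap, whey acidic protein, had 1.19, 1.11, 0.827 and 0.746 CPM in organoids, against 5.42, 8.80 and 9.51 CPM in tumors (log2 -3.02 ± 0.31). Neither gene overlapped between the groups. Lao1, an amino acid oxidase of milk, had 0.221 to 1.00 CPM in organoids, against 15.1, 9.19 and 75.5 CPM in tumors (log2 -6.16 ± 0.90, and -4.69 without tumor 3). Muc1, the mucin of the luminal surface, fell by log2 -2.15 ± 0.31. The 2 members that rose were Mfge8, a milk fat globule protein that bridges dying cells and phagocytes, at 1446 to 3521 CPM in organoids against 325 to 695 CPM in tumors, and the casein Csn1s1. Without tumor 1 or without tumor 3 only Mfge8 was called. The ASO1 pair called 4 of 17 members lower and the ASO2 pair 12 of 18.

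Aldh1a3, the retinaldehyde dehydrogenase of luminal progenitors, had 949.8, 939.5, 687 and 477 CPM in organoids, against 51.5, 23.8 and 27.2 CPM in tumors (log2 4.48 ± 0.40, adjusted p = 0.00089). Areg, the estrogen-induced EGF receptor ligand, had 42.0, 53.7, 27.0 and 61.5 CPM in organoids, against 2.78, 0.757 and 3.52 CPM in tumors (log2 4.31 ± 0.57). For both genes the organoids stood clear of the tumors. Of 17 luminal and hormone response genes tested 3 rose, the third being Ly6d, and 3 fell, Esr1, Elf5 and Cited1. Both shares were near those of all genes tested, 15.7% higher and 14% lower, so that the list's count is not a result about luminal genes. Ly6d was not called without organoid 1, organoid 2 or tumor 3. The number lower was 6 without organoid 4, 0 without tumor 1 and 1 without tumor 2 or tumor 3. Among the 22 pan-epithelial genes, Ehf, an ETS factor of epithelial cells, fell to 405, 347, 288 and 326 CPM in organoids, against 737, 1146 and 697 CPM in tumors (log2 -1.33 ± 0.22). The list's other 4 calls, Epcam and Spint1 higher and the claudins Cldn3 and Cldn7 lower, were each lost when single libraries of either side were left out, with 0 to 3 higher and 1 to 5 lower.

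Targets of ERK signalling rose in organoids, and the part of FGF2 in the medium cannot be told apart from the rest of culture. Of 16 FGF-ERK feedback genes 9 rose and none fell (list median 0.81). The same count was 9 without organoid 2, 9 without organoid 4, 8 with Mock organoids, and 7 and 9 in the ASO1 and ASO2 pairs. Promoters of the 2 members with the smallest p in the sequence table are shown for the ETS site CGGAAG on either strand, in the same window as above with the match in capitals. Dusp6 (chr10:99262981-99263280, + strand) holds 1 match, on the reverse strand, and Spry2 (chr14:105896770-105897069, − strand) none.
Dusp6: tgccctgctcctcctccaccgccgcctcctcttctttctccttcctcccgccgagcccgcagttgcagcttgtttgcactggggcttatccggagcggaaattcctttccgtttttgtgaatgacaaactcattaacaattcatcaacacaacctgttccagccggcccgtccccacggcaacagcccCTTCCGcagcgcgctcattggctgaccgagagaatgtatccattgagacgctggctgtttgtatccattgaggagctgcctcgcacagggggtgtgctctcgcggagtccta
Spry2: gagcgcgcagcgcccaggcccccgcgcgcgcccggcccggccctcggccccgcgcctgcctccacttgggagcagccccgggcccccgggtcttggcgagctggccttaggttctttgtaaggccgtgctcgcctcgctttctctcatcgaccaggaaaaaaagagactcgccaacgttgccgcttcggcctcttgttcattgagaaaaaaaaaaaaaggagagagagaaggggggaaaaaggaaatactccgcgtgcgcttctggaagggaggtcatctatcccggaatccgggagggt
Of 16 members the table had 10, of which 3 held the site in any promoter, against 16.9% of all promoters, counted singly. Dusp6, the phosphatase that switches ERK off, had 556, 599.9, 402 and 406 CPM in organoids, against 169.9, 188 and 128 CPM in tumors (log2 1.60 ± 0.21, adjusted p = 0.0025). Spry2, an inhibitor of receptor signalling to ERK, had 84.2, 87.7, 101 and 116 CPM in organoids, against 51.7, 49.8 and 46.0 CPM in tumors (log2 0.99 ± 0.16). Both brakes were higher in every organoid than in any tumor. Etv4 had 153, 144, 70.01 and 164 CPM in organoids, against 22.4, 29.1 and 26.7 CPM in tumors (log2 2.36 ± 0.30). Ccnd1, cyclin D1, had 1419, 1424, 1475 and 653 CPM in organoids, against 175, 229 and 344 CPM in tumors (log2 2.32 ± 0.35). Organoid 3 was low for Etv4 and organoid 4 for Ccnd1, yet both stayed above every tumor.

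Of 10 FGF receptor and ligand genes tested 2 rose and 2 fell. Both shares were near those of all genes tested, 15.7% higher and 14% lower, so the count is not a result about the FGF system. Fgfr1, a receptor for FGF2, had 1010, 908, 1000 and 450.1 CPM in organoids, against 409, 435 and 573 CPM in tumors. It was not called (log2 0.83, adjusted p = 0.062) but was without organoid 4 (log2 1.02, adjusted p = 0.00527). Fgfrl1, an FGF receptor that lacks a kinase, rose by log2 1.24 ± 0.24. Fgf1, an FGF ligand, fell to 29.7, 26.6, 18.3 and 11.7 CPM in organoids, against 50.4, 85.4 and 67.7 CPM in tumors (log2 -1.65 ± 0.31), and missed the threshold with Mock organoids (adjusted p = 0.0575). Fgfbp1, a carrier that frees FGFs from the matrix, had 31.1, 50.6, 22.8 and 384 CPM in organoids, against 1.65, 0 and 0.464 CPM in tumors (log2 7.43 ± 1.66, adjusted p = 0.014). Its fold change was 5.55 without organoid 4, 9.26 without tumor 1 and 6.83 without tumor 2, and its call was lost without tumor 3 (adjusted p = 0.0639). Fgfr4 was the other gene that fell, and that call was lost without organoid 2 or any 1 tumor.

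Immediate early genes, transcribed within minutes of growth factor or stress signals, rose for 7 of 18 members, and Klf2, a shear-responsive factor of endothelium, fell. Egr3 had 77.1, 72.8, 18.1 and 32.6 CPM in organoids, against 2.78, 0.783 and 1.86 CPM in tumors (log2 4.78 ± 0.68, adjusted p = 0.0029). Egr1 and Egr2, zinc finger factors of the same family, rose by log2 2.06 ± 0.23 and 2.08 ± 0.35. Ier3, a regulator of ERK and cell survival, had 519, 476, 494 and 828 CPM in organoids, against 95.7, 87.9 and 87.5 CPM in tumors (log2 2.69 ± 0.26). For all 4 genes the groups were clear of each other. Klf2 was not called without tumor 3, and 3 members were called lower without organoid 4.

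**Figure D3:**
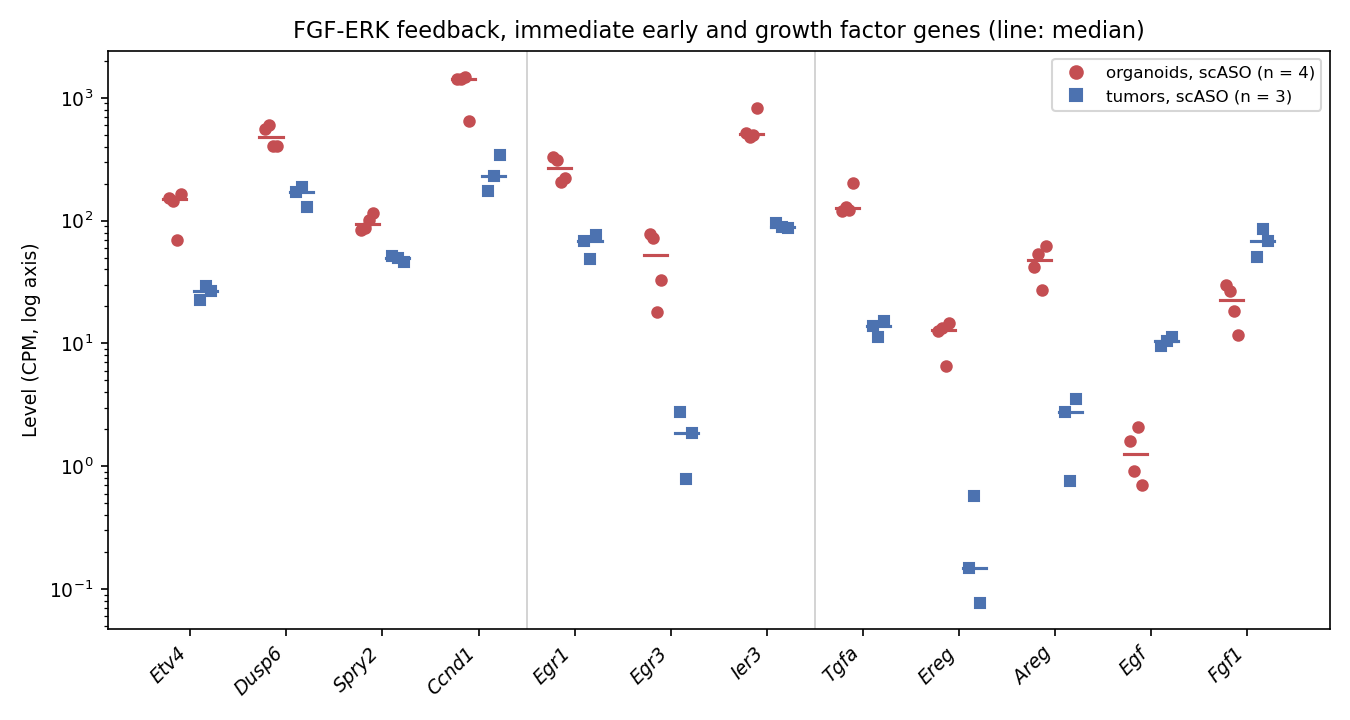
Level (CPM, log axis) of FGF-ERK feedback, immediate early and growth factor genes in every scASO library, organoids as red circles (n = 4) left of tumors as blue squares (n = 3), with a line at the median. From Etv4 to Areg every organoid lies above every tumor, and for Egf and Fgf1 every organoid lies below every tumor.

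Ligands of the EGF receptor changed places. Tgfa had 119, 128, 123 and 201 CPM in organoids, against 13.9, 11.4 and 15.3 CPM in tumors (log2 3.41 ± 0.26, adjusted p = 0.00067). Ereg, epiregulin, had 12.6, 13.2, 6.57 and 14.6 CPM in organoids, against 0.148, 0.574 and 0.0773 CPM in tumors (log2 5.41 ± 0.69, and 6.61 without tumor 2). Egf went the other way, with 1.60, 0.916, 2.09 and 0.705 CPM in organoids, against 9.46, 10.4 and 11.2 CPM in tumors (log2 -2.96 ± 0.39). The receptor Egfr rose by log2 0.69 ± 0.13, and with Mock organoids it missed the threshold (adjusted p = 0.0601). Of the 12 ErbB receptors and ligands 5 rose, Hbegf and Epgn included, and 3 fell, Egf, Erbb4 and Nrg2. Calls were lost when single libraries were left out: 3 rose without any 1 tumor, and 1 fell without organoid 1, organoid 2, tumor 2 or tumor 3. The list median of 0.15 changed sign with libraries scaled by total reads (-0.13).

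Targets of YAP and TEAD, which respond to tension and cell shape, rose for 9 of 14 members and none fell (list median 1.31), though only 5 were called without any 1 of the 3 tumors, 6 without organoid 1 or organoid 2, and 5 with Mock organoids. Nt5e, the ectonucleotidase CD73, had 192, 218, 105 and 243 CPM in organoids, against 23.8, 14.9 and 17.0 CPM in tumors (log2 3.36 ± 0.34, adjusted p = 0.0013). Crim1, a BMP-binding membrane protein, rose by log2 2.48 ± 0.25, and Axl, a receptor kinase, by log2 1.71 ± 0.32, which missed the threshold with Mock organoids (adjusted p = 0.083). Of 11 Wnt target genes tested 3 rose. Lef1, a partner of β-catenin on DNA, had 28.8, 21.5, 38.2 and 30.3 CPM in organoids, against 1.48, 0.888 and 1.74 CPM in tumors (log2 4.45 ± 0.34, adjusted p = 0.00067). Nkd2, an inhibitor of Wnt signalling, and Tcf7, a relative of Lef1, rose by log2 3.41 ± 0.58 (4.12 without tumor 1) and 2.88 ± 0.53. The list median was 2.88, and -0.64 without organoid 4. Rnf43, a ligase that removes Wnt receptors, was called lower, but not without organoid 1, organoid 2 or any 1 tumor, and without organoid 4 the list had 2 lower calls.

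Of 12 TGF-β and BMP target genes 5 rose and 1, Id2, fell. Grem1, a secreted BMP antagonist, had 17.8, 22.0, 12.8 and 18.9 CPM in organoids, and in tumors it had 3 reads in all, 0.116 CPM in tumor 3 and none in the other two (adjusted p = 0.00089). Id4, an inhibitor of basic helix-loop-helix factors found in basal cells, had 51.2, 48.9, 26 and 70.9 CPM in organoids, against 8.37, 8.62 and 2.63 CPM in tumors (log2 2.91 ± 0.50). Id1 and Bambi also rose, and each call was lost without any 1 tumor. The count was 3 without tumor 1, 2 without tumor 2 or tumor 3, and 7 higher with 2 lower without organoid 4.

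Matrix genes changed in kind. Laminins and integrins, the basement membrane proteins and their receptors, rose for 13 of 23 members, and 1, Lamb2, fell (list median 1.02). Lamb3, a chain of epithelial laminin-332, had 390.5, 428, 343 and 531 CPM in organoids, against 96.2, 68 and 77.8 CPM in tumors (log2 2.4 ± 0.22, adjusted p = 0.00097). Itga3, an integrin chain that binds that laminin, had 378, 426, 291 and 434 CPM in organoids, against 94.8, 92.2 and 80.3 CPM in tumors (log2 2.11 ± 0.19). The organoids stood well above the tumors for both. Lama4, a laminin chain common in vessel walls, rose by log2 2.02 ± 0.17, and Itgb1, the shared β1 integrin chain, by 0.94 ± 0.21. The call of Lamb2 was lost without tumor 1 or tumor 2, and 2 members were lower without organoid 4.

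Among 18 collagens 5 rose and 3 fell, against 15.7% higher and 14% lower among all genes tested, so the lower count is near that share. Col18a1, a basement membrane collagen, had 1383, 1479, 927 and 844 CPM in organoids, against 48.3, 111 and 42.5 CPM in tumors (log2 4.10 ± 0.43, adjusted p = 0.0014). Col7a1, the collagen of anchoring fibrils, and Col12a1, a fibril-associated collagen, rose by log2 1.34 ± 0.18 and 1.15 ± 0.18, the last with an adjusted p of 0.0508 with Mock organoids. Col3a1, a fibrillar collagen of connective tissue, had 23.4, 26.7, 11.3 and 6.17 CPM in organoids, against 110.3, 111 and 149 CPM in tumors (log2 -2.87 ± 0.45, adjusted p = 0.0039). Col18a1 was thus above, and Col3a1 below, the tumors in every organoid. With Mock organoids 2 collagens were called higher and 3 lower, with a list median of -0.05, against 0.48 with scASO organoids. Col6a3 and Col8a1 also rose, and Col1a1 and Col1a2, the chains of type I collagen, fell, with 1 call lower left without tumor 3. The calls of Col8a1 and Col1a1 were each lost without organoid 1, tumor 2 or tumor 3, that of Col8a1 also without organoid 2 (adjusted p = 0.0784), and that of Col1a1 also without organoid 3 or organoid 4 (0.0645 and 0.0525). Fibroblast genes, whose sums overlapped between the groups, moved in part with the fibrillar collagens, and their part in this was not tested.

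A pair of matrix glycoproteins rose. Fn1, fibronectin, had 2073, 2046, 762 and 1211 CPM in organoids, against 55.8, 27.3 and 34.6 CPM in tumors (log2 5.27 ± 0.49, adjusted p = 0.00099). Tnc, tenascin C, a matrix protein of wounds and tumor margins, had 802, 937, 256 and 590.2 CPM in organoids, against 17.6, 14.8 and 18.4 CPM in tumors (log2 5.25 ± 0.48). Organoids 1 and 2 were highest and organoid 3 lowest for both. Of 8 genes of mesenchymal transition 3 rose, Fn1, Snai1 and Cdh2, against 15.7% higher among all genes tested. The list median of 0.806 changed sign in the other comparisons. It was -0.35 with Mock organoids, with 2 higher and 1 lower, -0.364 in the ASO1 pair and -0.036 in the ASO2 pair. Snai1, a repressor of E-cadherin, had 48.3, 44.1, 15.3 and 18.9 CPM in organoids, against 2.98, 2.4 and 7.08 CPM in tumors (log2 2.94 ± 0.57, and 3.55 without tumor 3). The call of Cdh2, N-cadherin, was lost without organoid 1, organoid 2, tumor 1 or tumor 3.

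Of 18 metalloprotease and plasminogen activation genes tested 9 rose and none fell, with 5 called without tumor 1 or tumor 2 and 4 with Mock organoids. Mmp3, stromelysin, had 85.8, 107, 43.3 and 219 CPM in organoids, against 5.54, 5.69 and 5.53 CPM in tumors (log2 4.37 ± 0.57, adjusted p = 0.0023). Mmp10, a related stromelysin, had 20.4, 32.0, 6.40 and 34.9 CPM in organoids and only 2 reads in all, both in tumor 1, in tumors (adjusted p = 0.0013). Plau, urokinase, and Adamts1, a protease that cuts proteoglycans, rose by log2 3.16 ± 0.46 and 2.12 ± 0.38.

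Among 23 chemokine and cytokine genes tested 9 rose and 1, Ccl8, fell, and 5 rose without tumor 3. Cxcl1, a neutrophil attractant, had 132, 162, 38.4 and 135 CPM in organoids, against 7.22, 3.00 and 5.76 CPM in tumors (log2 4.46 ± 0.57, adjusted p = 0.0022). Cxcl5, another, had 42.5, 49.1, 17.6 and 81.4 CPM in organoids, against 1.38, 0.6 and 0.232 CPM in tumors (log2 5.97 ± 0.77, and 6.79 without tumor 1). Csf3, the granulocyte growth factor G-CSF, had 12.8 to 34.7 CPM in organoids and 0.835 to 1.82 CPM in tumors (log2 4.39 ± 0.47). Cx3cl1, fractalkine, the ligand of a macrophage and NK cell receptor, rose by log2 2.75 ± 0.29. Organoid 3 was the lowest culture for all of these. Ccl8 had 0.111 to 0.609 CPM in organoids and 3.50 to 6.11 CPM in tumors. It is a monocyte attractant, and 2 members were called lower without organoid 2 or organoid 4.

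Cholesterol synthesis rose nearly as a whole: 21 of 23 genes rose and none fell, and 13 passed the test for more than 2-fold (list median 1.81). The other 2, Tm7sf2 and Ebp, were not called. The count was 21 without organoid 2, 21 without organoid 4, 21 with Mock organoids and 21 in each of the ASO1 and ASO2 pairs. Promoters of the 2 members with the smallest p in the sequence table are shown with CCAAT boxes, on either strand, in capitals. CCAAT was searched after the sterol element TCACNCCAC, present in 1.24% of all promoters, matched none of the 15 members in the table. Nsdhl (chrX:72918271-72918570, + strand) holds 4 matches and Lss (chr10:76531355-76531654, + strand) 1.
Nsdhl: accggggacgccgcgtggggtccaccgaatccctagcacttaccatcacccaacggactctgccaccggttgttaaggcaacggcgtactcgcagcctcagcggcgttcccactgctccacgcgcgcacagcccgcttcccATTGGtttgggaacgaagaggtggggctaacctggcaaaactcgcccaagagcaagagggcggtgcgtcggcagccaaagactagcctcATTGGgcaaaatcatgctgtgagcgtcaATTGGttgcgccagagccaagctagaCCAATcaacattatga
Lss: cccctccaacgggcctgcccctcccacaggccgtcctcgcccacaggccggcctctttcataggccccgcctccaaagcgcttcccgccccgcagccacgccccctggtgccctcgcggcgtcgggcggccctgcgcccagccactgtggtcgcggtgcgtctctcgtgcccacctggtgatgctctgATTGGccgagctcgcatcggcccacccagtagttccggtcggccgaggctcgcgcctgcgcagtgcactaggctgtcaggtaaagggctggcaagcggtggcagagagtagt
CCAAT was in any promoter of 15 of the 15 members in the table and in 37.4% of all promoters, counted singly. Fdps, which makes farnesyl diphosphate, had 124, 164, 177 and 178 CPM in organoids, against 43.1, 39.2 and 41.6 CPM in tumors (log2 1.97 ± 0.17, adjusted p = 0.00079). The 4 cultures lay close together and well above the tumors. Nsdhl and Lss, a sterol dehydrogenase and lanosterol synthase, rose by log2 1.53 ± 0.12 and 1.52 ± 0.13. Srebf2, the SREBP factor of these genes, had 466, 501, 330 and 378 CPM in organoids, against 153, 167 and 146 CPM in tumors (log2 1.43 ± 0.17). The summed level was 3056 to 3579 CPM in organoids and 934.5 to 1051 CPM in tumors.

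**Figure D4:**
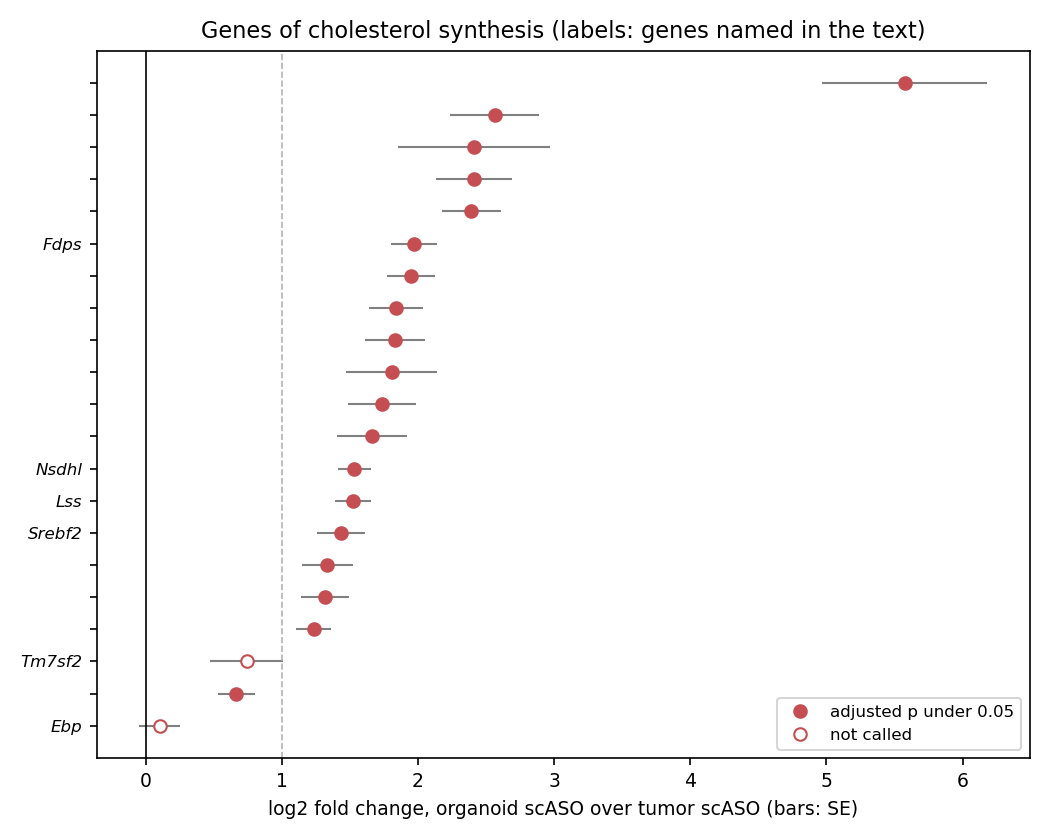
Log2 fold change (organoid scASO over tumor scASO, horizontal axis, bars are standard errors) of 21 of the 23 cholesterol genes tested, one row per gene with the genes named in the text labelled, filled points for an adjusted p under 0.05 and open points for the others; the dashed line marks a 2-fold rise. All 21 points are above 0 and 19 are filled, with Fdps at 1.97 and Nsdhl at 1.53.

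Fatty acid synthesis moved less evenly, with 8 of 16 genes higher and 1, Thrsp, lower. Scd2, a desaturase, had 2443, 2556, 2470 and 2896 CPM in organoids, against 745, 792 and 734 CPM in tumors (log2 1.78 ± 0.17, adjusted p = 0.0012). Elovl6, an elongase, and Fasn, fatty acid synthase, rose by log2 1.93 ± 0.24 and 1.42 ± 0.25. Without tumor 2 and tumor 3 in turn, 5 and 4 genes were called higher. The call of Thrsp was lost without organoid 1, organoid 2 or any 1 tumor, and 4 genes were lower without organoid 4.

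Genes of hypoxia and glycolysis rose for 13 of 20 members and all 20 had a positive fold change (list median 1.72, and 1.15 without organoid 4). Egln3, an oxygen-sensing hydroxylase that hypoxia induces, had 698, 701, 1074 and 2047 CPM in organoids, against 229.5, 140.3 and 134 CPM in tumors (log2 2.77 ± 0.48, adjusted p = 0.0055). Slc16a3, a lactate exporter, had 72, 90.8, 102 and 276 CPM in organoids, against 13.8, 3.37 and 4.18 CPM in tumors (log2 4.26 ± 0.75, 3.59 without organoid 4 and 5.19 without tumor 1). Organoid 4 was the highest culture and tumor 1 the highest tumor for both. The glycolytic enzymes Pfkp and Pkm rose by log2 1.76 ± 0.23 and 1.58 ± 0.20. The count was 5 without tumor 2 and 6 without tumor 3, and 14, 10 and 20 in the Mock comparison and the ASO1 and ASO2 pairs.

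Antioxidant genes, which the factor NRF2 drives, rose for 10 of 14 members (list median 1.98, and 1.19 without organoid 4). Nqo1, a quinone reductase, had 289, 242, 439.8 and 339.5 CPM in organoids, against 70.4, 71.0 and 49.0 CPM in tumors (log2 2.38 ± 0.26, adjusted p = 0.0015). Gpx2, a glutathione peroxidase, had 125, 147, 160.4 and 319 CPM in organoids, against 8.10, 3.89 and 0.619 CPM in tumors (log2 5.47 ± 0.84, and 6.36 without tumor 1). Gstm1, a glutathione transferase, and Aldh3a1, an aldehyde dehydrogenase, rose by log2 2.39 ± 0.27 and 4.51 ± 0.69 (5.49 without tumor 3). The count was 6 without tumor 2 or tumor 3.

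Genes of the integrated stress and unfolded protein responses rose for 8 of 20 members, and 5 without tumor 2 or tumor 3. Asns, asparagine synthetase, had 121, 114, 155 and 114 CPM in organoids, against 60.4, 42.0 and 54.2 CPM in tumors (log2 1.28 ± 0.18, adjusted p = 0.003). Chac1, which degrades glutathione, and Sesn2, a sensor of leucine, rose by log2 2.26 ± 0.41 and 1.34 ± 0.18. The 1 member that fell was Herpud1, an endoplasmic reticulum degradation factor, at 66.1 to 79.5 CPM in organoids and 117 to 194 CPM in tumors (log2 -1.10 ± 0.17), and 2 fell without organoid 3 or organoid 4. Xbp1, the unfolded protein factor, had 470.0 and 486 CPM in organoids 1 and 2 and 1277 and 1168 CPM in organoids 3 and 4, against 1102 to 1341 CPM in tumors (adjusted p = 0.34).

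Respiratory chain genes of the nucleus and of the mitochondrial genome parted. Of 20 nuclear genes 1 fell and none rose, Ndufa4, a cytochrome oxidase subunit, at 107 to 130 CPM in organoids and 180 to 192 CPM in tumors (adjusted p = 0.006, and 0.0864 with Mock organoids), with 3 lower without organoid 4. Of 9 mitochondrially encoded genes 7 rose (list median 1.29). Their summed level was 29330 to 42610 CPM in organoids and 13430 to 14690 CPM in tumors. The complex I subunit mt-Nd5 had 5680, 4468, 3323 and 3173 CPM in organoids, against 1142, 1226 and 1450 CPM in tumors (log2 1.71 ± 0.26, adjusted p = 0.0034). The oxidase subunit mt-Co1 rose by log2 1.29 ± 0.23. The count was 4 without organoid 2, tumor 1 or tumor 2, and the ASO2 pair called none (list median 0.07). The share of mitochondrial reads can move with RNA quality, and its part in the other results was not tested.

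Cell cycle genes were higher in organoids under scASO. Of 20 G2/M genes 14 rose and none fell (list median 0.95), and of 20 G1/S genes 11 rose and none fell (median 0.81). Mki67, a marker of cycling cells, had 785, 766, 498 and 381 CPM in organoids, against 268, 181 and 252 CPM in tumors (log2 1.38 ± 0.28, adjusted p = 0.01). Top2a, topoisomerase II, had 228, 235, 287 and 210.4 CPM in organoids, against 107, 92.9 and 103 CPM in tumors (log2 1.26 ± 0.15). Every organoid was above every tumor for both. Cenpf, a kinetochore protein, E2f1, a factor of S phase entry, and Tk1, thymidine kinase, rose by log2 1.37 ± 0.18, 1.78 ± 0.27 and 0.99 ± 0.13. Rrm2, a ribonucleotide reductase subunit, rose by log2 1.04 ± 0.17. The G2/M count was 8 without tumor 2 and 9 without organoid 1, organoid 2, tumor 1 or tumor 3, and the G1/S count 7 without tumor 1 or tumor 3. With Mock organoids the counts were 5 and 2 (medians 0.77 and 0.49), and Mki67 and Rrm2 missed the threshold (adjusted p = 0.0714 and 0.14).

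In the ASO1 pair 0 G2/M and 1 G1/S gene were called higher (medians -0.26 and -0.10), and in the ASO2 pair 0 and 2, with 3 G1/S genes lower (medians -0.23 and -0.10). Mki67 differed by log2 0.14 in the ASO1 pair and 0.27 in the ASO2 pair. The difference between the scASO and the ASO contrasts was tested over all genes in a fit of the 26 libraries, and it called 1 gene for ASO1 and 0 for ASO2, with 863 and 751 genes at an unadjusted p under 0.05. Same-numbered organoids of different treatments deviated together (r from 0.436 to 0.919 over 24 pairs of libraries, median 0.78). Pairs of different number had r from -0.736 to 0.76 (72 pairs, median -0.308). The library labelled scASO organoid 2 correlated more with number 1 than number 2 of ASO1 (0.676 and 0.472) and Mock (0.678 and 0.503). For ASO2 it did not (0.542 and 0.57). The block may thus not suit that library. With the organoid number as a block 6 genes were called for ASO1 and 0 for ASO2, with 2210 and 2010 at an unadjusted p under 0.05. No cell cycle gene passed the adjusted test in either fit. Of the 20 G2/M genes, 20 had a smaller contrast with ASO1 and 20 with ASO2, and 14 and 8 had an unadjusted p under 0.05, or 17 and 15 with the block. Such shifts were not particular to the cell cycle. With ASO2 and no block, 15 of 15 skeletal muscle and 14 of 15 adipocyte genes had a smaller contrast, 9 and 8 at that p. With ASO1, 7 of 22 pan-epithelial genes reached that p, and 3 of the 22 had a smaller contrast. The 1 gene called without the block, and 1 of the 6 with it, was Chit1, a chitinase of macrophages, picked after its values were seen. It averaged 90.2 ± 5.93 CPM in ASO1 organoids (SD, n = 4) and 1.49 ± 0.483 CPM in ASO1 tumors (n = 3), against 80.9 ± 10.3 CPM in scASO organoids and 14.4 ± 2.98 CPM in scASO tumors (edgeR interaction log2 3.45 ± 0.36, adjusted p = 4.12e-05).

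The genes with the largest changes, chosen among those called beyond 2-fold with a mean of at least 50 CPM on the higher side and no overlap, included several that fall in no list. Atp6v0a4, a subunit of the proton pump V-ATPase, had 419, 423, 430.0 and 367 CPM in organoids, against 2.69, 0.287 and 7.12 CPM in tumors (log2 6.96 ± 0.95, adjusted p = 0.0027, and 8.10 without tumor 3). Cyp1b1, a P450 enzyme that the dioxin receptor induces, had 155, 144, 328 and 1008 CPM in organoids, against 8.05, 1.77 and 4.49 CPM in tumors (log2 6.45 ± 1.03, 5.42 without organoid 4 and 7.08 without tumor 1). Klk10, a kallikrein-related peptidase, had 342, 513, 261 and 345 CPM in organoids, against 7.96, 0.6 and 9.67 CPM in tumors (log2 5.92 ± 0.89). In these 3 genes tumor 2 was the lowest library. Tslp, an epithelial cytokine, had 6.38, 22.5, 6.57 and 213 CPM in organoids, against 0.443, 0.392 and 0.309 CPM in tumors (log2 7.36 ± 1.70, adjusted p = 0.015). Its fold change was 4.90 without organoid 4, and its call was lost without tumor 1, tumor 2 or tumor 3 (0.0597, 0.0651 and 0.066).

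On the lower side, Klhdc7a, a kelch domain protein, had 7.27, 6.53, 7.14 and 7 CPM in organoids, against 168, 247 and 259 CPM in tumors (log2 -5.00 ± 0.18, adjusted p = 6.6e-05). The 4 cultures were within 1 CPM of each other. Spdef, an ETS factor of secretory epithelium, had 2.54, 2.58, 6.18 and 2.2 CPM in organoids, against 45.3, 47.5 and 74.9 CPM in tumors (log2 -4.05 ± 0.41). Clca3a1, a protein of the calcium-activated chloride channel regulator family, differed by log2 -4.54 ± 0.54, and Tmc5, a membrane protein, by -3.75 ± 0.42. Eln, elastin, had 3.65 to 8.56 CPM in organoids, against 179.6, 64.7 and 27.5 CPM in tumors (log2 -3.86 ± 0.61, and -2.88 without tumor 1). These 5 genes were called lower with Mock organoids and in the ASO2 pair too.

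**Figure D5:**
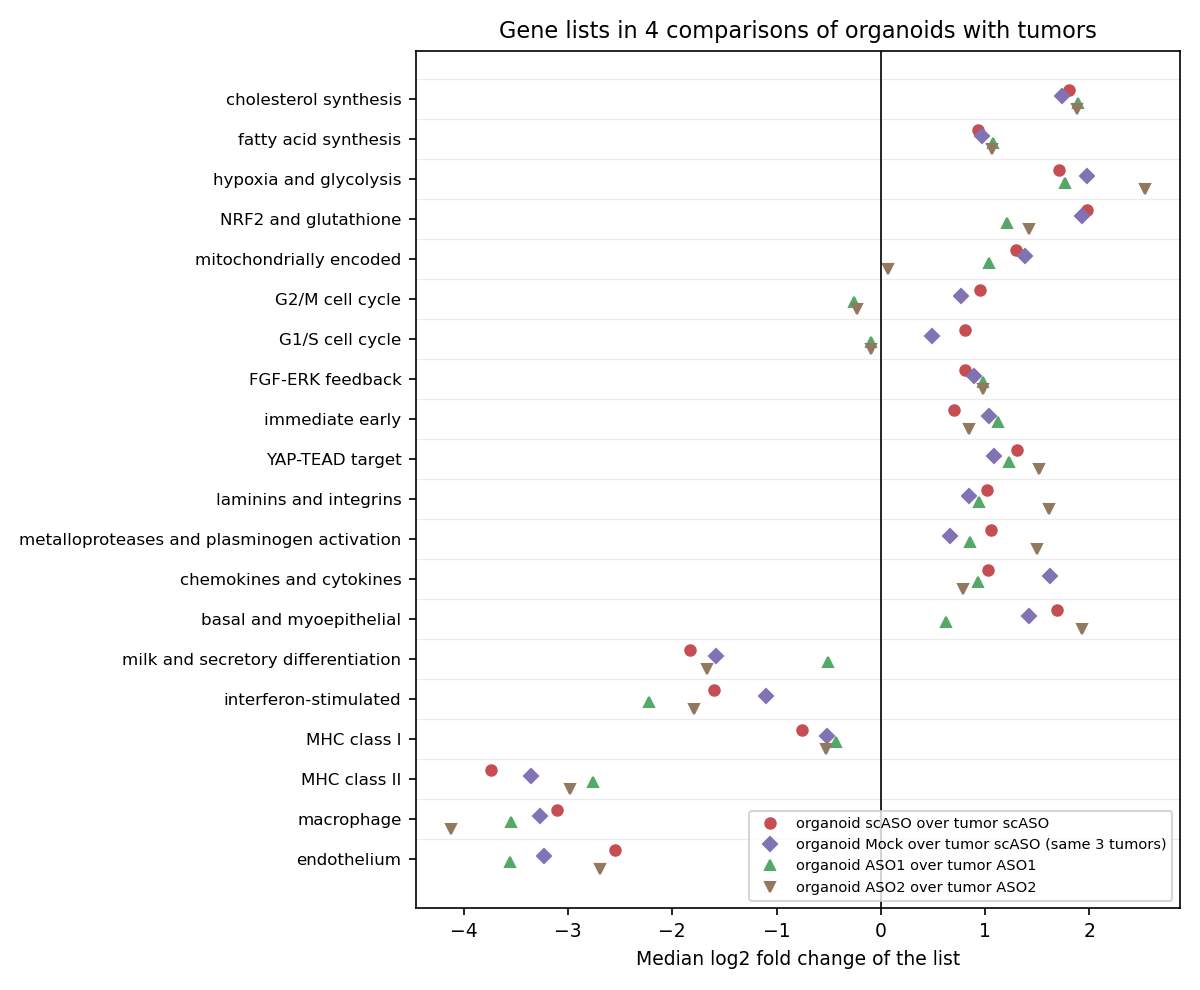
Median log2 fold change of gene lists, organoid over tumor, in 4 comparisons: scASO, Mock against the same 3 scASO tumors, the ASO1 pair and the ASO2 pair. The cholesterol medians lie together at 1.81, 1.74, 1.90 and 1.88, whereas the G2/M medians are 0.95 and 0.77 for scASO and Mock and -0.26 and -0.23 for the ASO1 and ASO2 pairs.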

How the data were processed

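The deposited files hold whole-number read counts per gene for each of 26 libraries made from polyadenylated RNA. The submitters' processing notes list STAR, HTSeq, CASAVA, FastQC, DESeq2 and the mouse build mm9, with no roles or versions. The strand setting and the annotation were not given in the sources used here, and reads of overlapping or antisense genes cannot be told apart. The 5 summary lines that name no gene were left out of library sizes. Gene IDs were matched to GENCODE M21 symbols (32620 of 37310). The main comparison used the 4 organoid and 3 tumor scASO libraries in edgeR 4.0.16 (R 4.3.3), with TMM scaling, filterByExpr at a minimum of 10 counts, the quasi-likelihood test and Benjamini-Hochberg adjustment at 0.05. Changes beyond 2-fold were tested with glmTreat. A printed ± after a fold change is a standard error, the fold change divided by the root of its F statistic. Printed CPM use TMM sizes over all 26 libraries. Mock, ASO1 and ASO2 organoids were fitted in the same way, and interactions in 1 fit of all libraries, also with the organoid number, which the labels share over treatments, as a block. Malat1 was tested by exact permutation. DESeq2 1.42.0 and limma 3.58.1 were alternatives.

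The part of the study, its members and its 42 gene lists (675 of 680 members matched) were chosen with earlier results of these data known. The text names Malat1, the 10 genes per direction with the largest change (called beyond 2-fold, at least 50 CPM on average on the higher side, no overlap), and per list up to 4 members with the smallest p, the member with the highest mean and, for other cell types, the first 3. Of these it prints those whose role is clear, and some are not reported here. Genes named because a list had 5 or fewer calls, and Acta2, Myh11 and Chit1, were chosen after their values were seen. In counts simulated from these libraries, with 16570 genes tested, the test found 12 of 100 genes set to a 2-fold change, 60 of 100 set to 4-fold and 2 unchanged genes. No other gene was changed there, whereas 29.7% of genes were called in the data, so these shares do not carry over to this comparison. A gene that was not called may still differ. Limits for genes without reads take 3 reads over the group. Promoter windows were read from RefSeq sequence on GRCm38.p6.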

Additional observations from a re-analysis of the deposited data

Results flagged for a closer look

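Among the 4 scASO organoids, single libraries stood apart in 17 of 173 genes and 1 of 42 lists checked, by the gap to the nearest library divided by the range (above Dixon's limit for 4 samples, which chance passes in about 1 in 20 groups). Organoid 4 was low for Ccnd1 (0.953), Fgfr1 (0.869) and Atp6v0a4 (0.841). It was high for Dsg3 (0.882), Tgfa (0.86) and Ier3 (0.844). Organoid 3 was low for Ly6d (0.947), Sfrp2 (0.919), Cxcl1 (0.86), Etv4 (0.852) and the FGF-ERK feedback list (0.862). It was high for Chac1 (0.846), Spdef (0.845) and Thrsp (0.836). Organoid 2, whose Malat1 level goes against its label, was high for Tk1 (0.888), and its gap was the whole range (1.0) for Ighm and Igkc, which no other organoid held. Organoid 1 was low for Lss (0.883). The organoid over tumor contrast of Chit1 differed between ASO1 and scASO by 3.45 on the log2 scale, with organoid means of 90.2 and 80.9 CPM and tumor means of 1.49 and 14.4 CPM. In the ASO2 libraries it averaged 97.5 CPM in organoids and 18.1 CPM in tumors.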

How the results depend on the processing

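The number of genes called, 4993, was 2849 with Mock organoids, 10249 with limma voom, 3260 without scASO organoids 2 and 4 (an alternative chosen after seeing the data), and 2667 to 5971 when 1 library was left out. For more than 2-fold, 1071 genes, these were 671 with Mock organoids, 451 without organoids 2 and 4, and 523 to 1248 when 1 library was left out. The cause of these shifts was not tested. Scaling by total assigned reads moved the median of all genes by -0.282 and the calls to 1556 higher and 4083 lower. Upper quartile scaling moved it by -0.133, with 2007 higher and 2998 lower. Folds in the text are relative to TMM scaling. With total reads the pan-epithelial list median turned from 0.164 to -0.119 and that of the ErbB list from 0.154 to -0.131, and without organoids 2 and 4 the ErbB median was -0.013. Of 178 tested genes in the text 167 were called, 114 of them under every alternative run per gene (limma voom was not), and none reversed. Weaker calls numbered 40 with Mock organoids and 18, 19, 4, 5, 27, 28 and 32 when organoids 1 to 4 and tumors 1 to 3 were left out in turn. Malat1's log2 difference of -1.302 ranged from -1.688 to -0.551 with 1 library left out. Same-numbered organoids and tumors correlated at -0.165, 0.123 and 0.0545 in their deviations from the group means. Organoid 1 correlated better with both other tumors than with its own number. So few libraries cannot show whether the numbers pair organoids with tumors, and the labels do not say. With the replicate number as a block 4816 genes were called, 898 beyond 2-fold. With the organoid number as a block, an alternative chosen after seeing the data, the contrast differed between ASO1 and scASO in 6 genes, against 1 without it. Depth limits the lymphocyte and red cell genes with no read in organoids.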
